A study of Homo sapiens with 2 samples.

Results

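The rows of the mitochondrial genome that hold ribosomal RNA and protein genes were followed in Huh-7 cells, a human hepatocellular carcinoma line, after 24 h with 0.1% DMSO (control) or with 0.1 mM BS008, an amiloride derivative that the study made to alter splicing. Total RNA was sequenced after library preparation with an Illumina mRNA-seq kit, and there was 1 library for each condition. The labels do not say whether the BS008 culture also received DMSO. The deposited values are read counts on 239322 exon rows, each listed only by its position and strand, with no gene named. Of these rows, 14 lie on the mitochondrial chromosome, and the 8 described here were chosen by their start position, with earlier results of the same libraries known. The other 6 mitochondrial rows serve as the comparison. The counts summed to 55476654 in the control library and 53578432 in the BS008 library. With 1 library a condition, differences between cultures or library preparations and an effect of BS008 cannot be told apart, no test was possible, and every interval given is a 95% interval that covers the counting of reads only.

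The human mitochondrial genome is a small circle that is copied into long RNAs from each strand. The heavy-strand RNA is cut mostly at the tRNAs that lie between the genes, which releases the 12S and 16S rRNAs of the mitochondrial ribosome and most of the mRNAs, and MTERF1 binds just downstream of the 16S gene, within the leucine tRNA gene MT-TL1. The mRNAs encode core subunits of respiratory complexes I, III and IV and of ATP synthase, and most carry poly(A) tails added by MTPAP, while the rRNAs carry short ones. LRPPRC and SLIRP keep the mRNAs stable.

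The positions in the files are those of the revised Cambridge reference, which the chromosome name states. They were compared with GENCODE release 29, whose mitochondrial sequence has an undetermined base at position 3107, and the files break 2 rows exactly there. Of the annotated mitochondrial genes, 1 of 2 rRNA genes, 3 of 13 protein genes and 17 of 22 tRNA genes have no base in any row. The rRNA gene without a row is MT-RNR1 (12S), and the protein genes without one are MT-ND2, MT-ATP8 and MT-ND3. The row of MT-RNR2, the 16S gene (chromosome M, 1671 to 3229, plus strand), ends at 3106 and covers 1400 bases, or 89.8% of the gene. The next row starts right after the undetermined base, ends at 4261 and holds 955 of the 956 bases of MT-ND1 (3307 to 4262), but also the last 122 bases of 16S rRNA and all 75 bases of MT-TL1. The row that ends at 9989 covers 80.0% of MT-ATP6 (8527 to 9207) and 99.9% of MT-CO3 (9207 to 9990). The row that ends at 12137 holds MT-ND4 (10760 to 12137) and the last 189 bases of MT-ND4L, and the row that ends at 14644 holds all 1812 bases of MT-ND5 followed by 496 bases of MT-ND6 (14149 to 14673), which is encoded on the other strand. The rows of MT-CO1 (gene 5904 to 7445), MT-CO2 (gene ending at 8269) and MT-CYB (gene 14747 to 15887) lie almost wholly on 1 gene each. Mitochondrial genes have no introns. Whether the libraries or the counting kept the strand was not stated, so reads from MT-ND6 may be counted together with those from MT-ND5 in their row. Nuclear copies of mitochondrial sequence exist, and how the counting treated reads that match both was not stated.

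The ends of these rows decide which RNA a count stands for, and the sequences at those ends are therefore shown, 5′ to 3′ on the plus strand, as the GENCODE transcripts give them. The first line is the start of 16S rRNA (1671 to 1730), with the bases counted in its row in capitals and the 36 bases before it in lower case. The next line is the end of the 16S row (3047 to 3106). It is printed in lower case, although all its bases were counted in that row. The line after it is the rest of 16S rRNA, up to 3229, all in capitals because these bases were counted with MT-ND1. The last lines are the tRNA genes MT-TV (1602 to 1670), which lies directly before 16S, and MT-TS2 (12207 to 12265), with the 31 bases that form a row in capitals.
16S rRNA start: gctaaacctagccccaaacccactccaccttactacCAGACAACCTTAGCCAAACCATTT
16S rRNA before 3107: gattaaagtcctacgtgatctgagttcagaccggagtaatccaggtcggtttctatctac
16S rRNA after 3107: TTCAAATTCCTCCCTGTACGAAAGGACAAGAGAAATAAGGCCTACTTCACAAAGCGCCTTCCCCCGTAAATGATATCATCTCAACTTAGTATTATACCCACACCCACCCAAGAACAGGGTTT
MT-TV: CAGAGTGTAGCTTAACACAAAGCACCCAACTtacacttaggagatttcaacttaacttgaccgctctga
MT-TS2: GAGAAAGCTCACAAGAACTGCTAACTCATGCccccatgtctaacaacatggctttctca

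Mitochondrial RNA made up a large part of both libraries. The 14 rows held 6553809 counts, or 11.8% (Wilson interval 11.81 to 11.82%), of the control library and 7013154, or 13.1% (13.08 to 13.10%), of the BS008 library. The 8 rRNA and protein-gene rows took ranks 1 to 7 and rank 9 by count among all 239322 rows in the control library, and the same ranks in a different order in the BS008 library. Among the 131330 rows with at least 10 counts in either library, 61410 took a larger share of the BS008 library and 69920 a smaller one. As counted, 3 of the 14 mitochondrial rows took a larger share and 11 a smaller one. The 3 were 16S (1.57% to 4.47%), MT-ND1 (0.867% to 0.947%) and MT-CYB (0.427% to 0.435%). The net rise of the mitochondrial share was not seen without the 16S row. Without the 16S row in either the numerator or the library total, the mitochondrial share was 10.4% with DMSO and 9.02% with BS008. A share is relative to all other counts, so whether the amount of mitochondrial RNA in a cell changed was not measured. The libraries also come from bulk RNA, so the number of mitochondria in each cell and the RNA in each mitochondrion cannot be told apart.

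**Figure D1:**
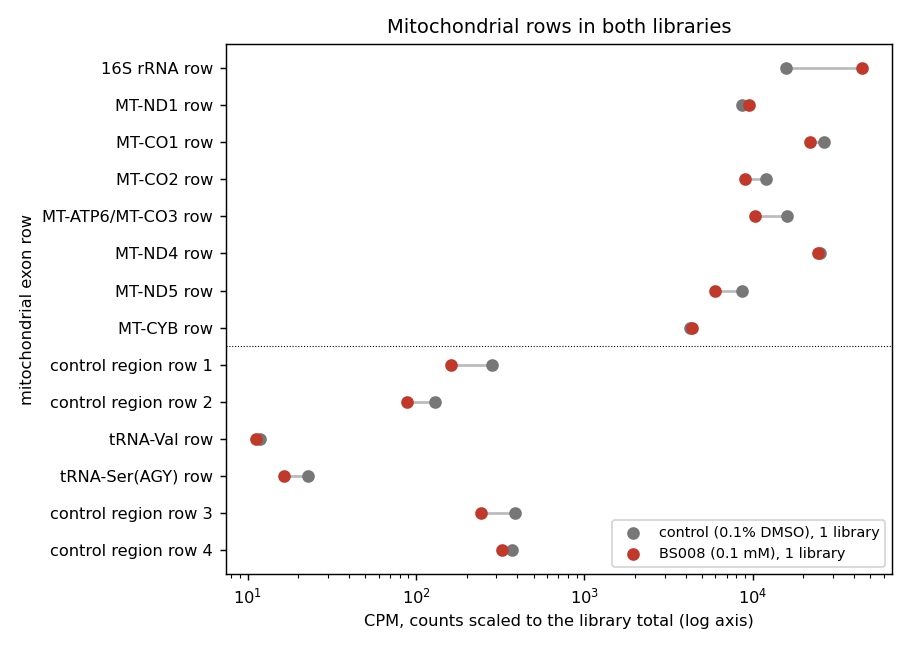
Counts scaled to the library total (CPM, log axis) of the 14 mitochondrial rows, with 1 grey point for the control library and 1 red point for the BS008 library in each row. The 16S rRNA row moves from 15698 to 44709 CPM, and apart from small shifts of MT-ND1 and MT-CYB the other rows move to the left.

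The row of the 16S rRNA of the large mitochondrial ribosomal subunit was the most changed of the 14 rows. This row had 870874 reads with DMSO and 2395413 with BS008, so that it went from rank 4 to rank 1 of all rows. Whether these reads follow the amount of 16S rRNA or its uptake by the mRNA-seq kit was not tested. Changes are given as log2 ratios (BS008 over control) of CPM, that is, of counts scaled by the library total, after 0.5 CPM was added to each value. On this scale the 16S row was at 1.51 (exact counting interval 1.506 to 1.514), or 2.85-fold higher. Of the 131330 rows with at least 10 counts in either library, 98.8% had a smaller log2 ratio, and 1567 were at or above it. The row was 1 of the 8 at least 2-fold higher, where 3.73% of all rows tested were, and none of the 8 was at least 2-fold lower, against 3.79% of all rows. Among the 533 rows with at least 10000 counts in either library, a group chosen after the data had been seen, 9.01% were higher by at least 2-fold and 9.57% lower, and 40 had a log2 ratio at or above that of the 16S row. The change of the 16S row was thus large against most rows but not rare among rows with many reads.

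**Figure D2:**
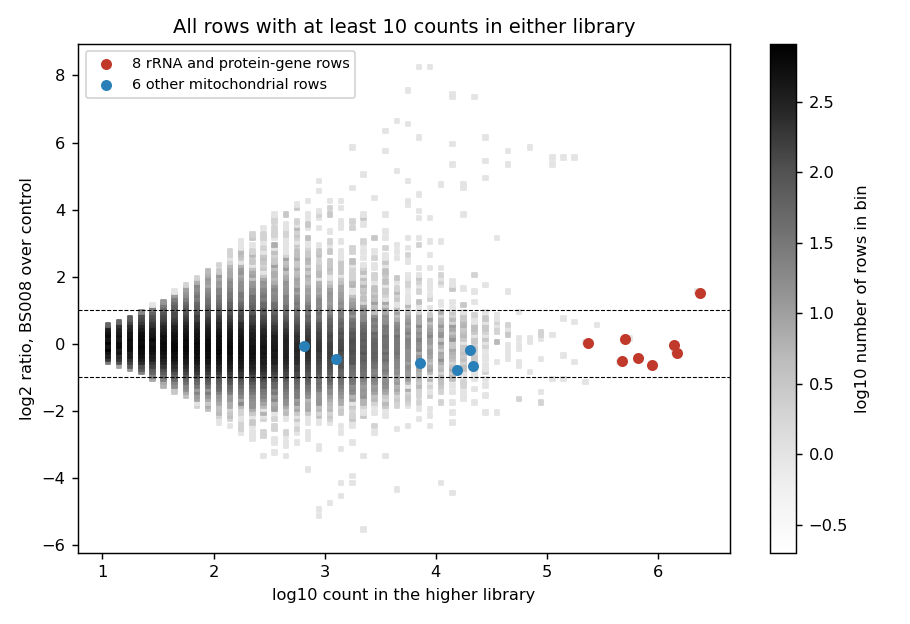
The log2 ratio of BS008 to control against the log10 count in the higher library, with grey bins for the 131330 rows that have at least 10 counts in either library, red points for the 8 rRNA and protein-gene rows, blue points for the 6 other mitochondrial rows, and dashed lines at 2-fold. The red points lie at the right end, and of them the 16S row, at 1.51, is past the upper line.

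None of the 7 protein-gene rows was at least 2-fold higher or lower. Together they had 5616282 reads with DMSO, or 10.1% of all counts, and 4572437 with BS008, or 8.53%, which gives a log2 ratio of -0.25. Their median log2 ratio was -0.28, beside -0.04 over all rows tested, and the values ranged from -0.64 to 0.13. Of the 131330 rows tested, 69920 were lower with BS008 and 61410 higher. As counted, the level was lower with BS008 in 5 of the 7 rows and higher in 2, one of them MT-ND1, whose row also holds 16S bases. With these bases left out by the calculation given for that row, 6 rows would be lower and 1 higher, with a median of -0.39 and a log2 ratio of -0.29 for the sum. The 16S row took 4.47% of the BS008 library against 1.57% of the control, which leaves a smaller share of the total for all other rows. With the 16S row left out of the library total, the median of the 7 rows was -0.23.

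Complex I of the respiratory chain, which takes electrons from NADH, was represented by 3 rows, and these did not move together. The MT-ND1 row had 480877 reads with DMSO and 507159 with BS008, for a log2 ratio of 0.13 (0.12 to 0.13). This was the highest value of the protein-gene rows, in the row that also holds the last 122 bases of 16S rRNA. If these bases held as many reads per base as the 16S row, namely 622 with DMSO and 1711 with BS008, they would account for 15.8% of the reads of the MT-ND1 row in the control library and 41.2% in the BS008 library. The 404987 and 298416 reads left would have a log2 ratio of -0.39. This calculation was added after the data had been seen. The files do not show how the reads are spread within a row, so the direction of MT-ND1 itself is uncertain.

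The MT-ND4 row, with a further subunit of the membrane arm of complex I, had 1394842 reads with DMSO and 1305520 with BS008, for a log2 ratio of -0.05. Its sign depended on the scaling, since the value was 0.014 with TMM factors and 0.015 with RLE factors, which scale the libraries so that rows do not change on the whole. The MT-ND5 row had 476116 reads with DMSO and 318257 with BS008, and its log2 ratio was -0.53, or 1.44-fold lower. The MT-ND5 row was thus lower with BS008, while the MT-ND4 row, which lies before it on the heavy-strand RNA, was nearly level. Because 21.5% of the bases of the MT-ND5 row belong to MT-ND6, how much of its decrease comes from MT-ND5 was not tested.

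Complex IV reduces oxygen to water, and MT-CO1 and MT-CO2 encode its catalytic core. The MT-CO1 row had the most reads of all rows with DMSO, 1473261, and 1173680 with BS008, where it took rank 3 (log2 ratio -0.28). The MT-CO2 row had 669022 reads with DMSO and 484637 with BS008, and a log2 ratio of -0.41. Both rows were lower with BS008 under every scaling tried. MT-CO3, the remaining mitochondrial subunit of this complex, shares its row with MT-ATP6, which encodes the proton channel subunit of ATP synthase, as the genes adjoin without a tRNA between them and the files list them as 1 row. This row had 885530 reads with DMSO and 550254 with BS008 (log2 ratio -0.64), and at 1.55-fold it was the most decreased of the 8. A decrease of at least 1.5-fold was found in 13.9% of all rows tested.

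MT-CYB, the only mitochondrial gene of complex III, was almost level, with 236634 reads under DMSO and 232930 under BS008. Its log2 ratio was 0.03 (0.02 to 0.04), and with TMM factors it was 0.09. Compared with all rows tested, the log2 ratios of MT-CO1, MT-ND4 and MT-CYB lay in the middle of the distribution, between -0.37 and 0.30, which are its quartiles. The MT-ND1 row lay there as counted. By the calculation without its 16S bases it would lie below the lower quartile, with 23.9% of rows at a smaller value. The log2 ratios of MT-CO2, MT-ND5 and MT-ATP6/MT-CO3 lay below that quartile, with 22.4%, 16.3% and 11.97% of rows at a smaller value. Along the heavy-strand RNA from 16S to MT-CYB the log2 ratios showed no steady trend. As counted, they fell from 16S to MT-ATP6/MT-CO3, came back to near 0 at MT-ND4, fell again at MT-ND5 and were near 0 at MT-CYB. Without its 16S bases, MT-ND1 would be lower than MT-CO1, so the fall over the first rows rests on the MT-ND1 row as counted.

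**Figure D3:**
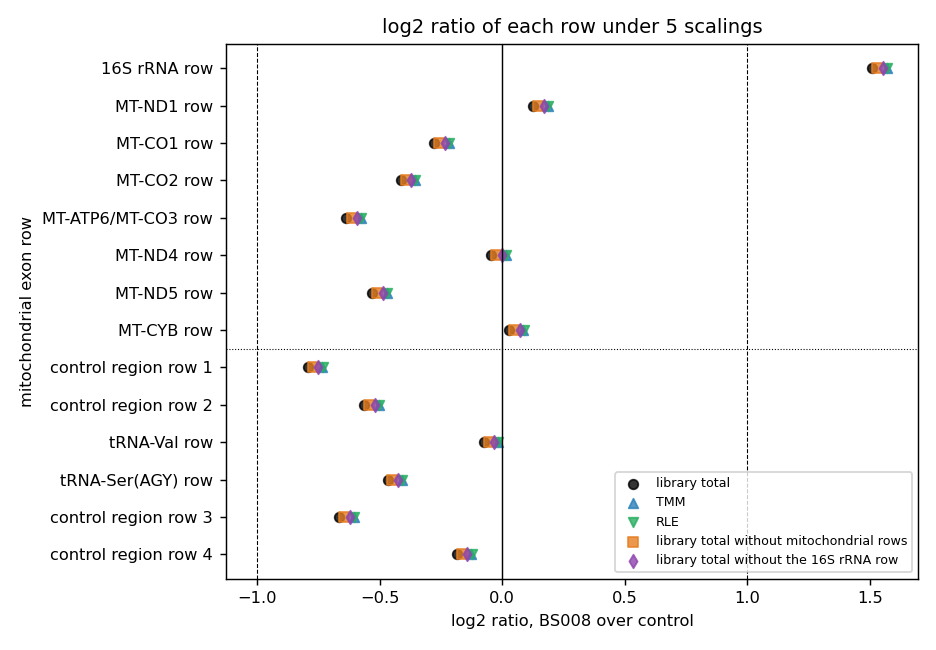
The log2 ratio of BS008 to control for each mitochondrial row under 5 scalings (symbols), with dashed lines at 2-fold and 1 library a condition. All 4 other scalings shift the rows to the right by at most 0.0605, which carries the MT-ND4 row from -0.05 to 0.02 with RLE factors and leaves the sign of every other row as it was.

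Levels of different genes were compared per length, in RPKM, a count scaled to the length of the row and to the library total, which the authors deposited. The libraries were made with an mRNA-seq kit, and the rRNAs carry only short poly(A) tails. How much of the 16S rRNA such a kit takes up was not tested. The place of 16S among the mRNAs, and its ratios to them, therefore hold for reads and not for amounts of RNA. In control cells the order was MT-CO2 (17009), MT-CO1 (16883), MT-ND4 (16117), MT-ATP6/MT-CO3 (12029), 16S (11213), MT-ND1 (7511), MT-CYB (3785) and MT-ND5 (3718). MT-CO2 and MT-CO1 differed by little, as did MT-CYB and MT-ND5, and whether these neighbours differ beyond the spread between cultures cannot be judged. In BS008-treated cells the order began with 16S (31935), followed by MT-ND4 (15620), MT-CO1 (13926), MT-CO2 (12758), MT-ND1 (8203), MT-ATP6/MT-CO3 (7739), MT-CYB (3858) and MT-ND5 (2574). Without its 16S bases the MT-ND1 row, over the 1032 bases left, would be at 7074 RPKM with DMSO, in the same place, and at 5397 with BS008, below MT-ATP6/MT-CO3. The 16S row moved from the fifth to the first place. The ratio of 16S to MT-CO1 per length went from 0.66 to 2.29, that of 16S to MT-CO2 from 0.66 to 2.50, and that of 16S to MT-ND5 from 3.02 to 12.4. These ratios are taken within a library and do not depend on its total.

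**Figure D4:**
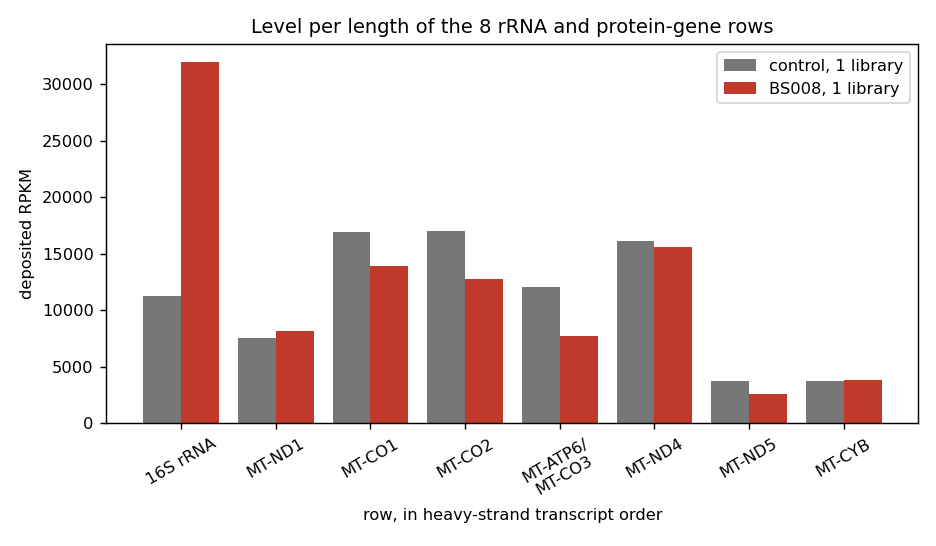
Deposited RPKM of the 8 rRNA and protein-gene rows in the order in which they lie on the heavy-strand RNA, as bars from 0, grey for the control library and red for the BS008 library. The 16S bar goes from 11213 to 31935, while the bars of MT-ND1 to MT-CYB stay at or below 17009 in both libraries.

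The make-up of the mitochondrial counts moved accordingly. The 16S row held 13.3% (Wilson interval 13.26 to 13.31%) of all mitochondrial counts with DMSO and 34.2% (34.12 to 34.19%) with BS008. The share of MT-CO1 went from 22.5% to 16.7%, that of MT-ND4 from 21.3% to 18.6% and that of MT-ATP6/MT-CO3 from 13.5% to 7.85%. MT-CYB held 3.61% and 3.32%. The MT-ND1 row held 7.34% and 7.23% as counted. It would hold 6.18% and 4.26% without its 16S bases, if these had as many reads per base as the 16S row. Shares add up to a fixed total, so a larger 16S share lowers the others even where their own levels hold.

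**Figure D5:**
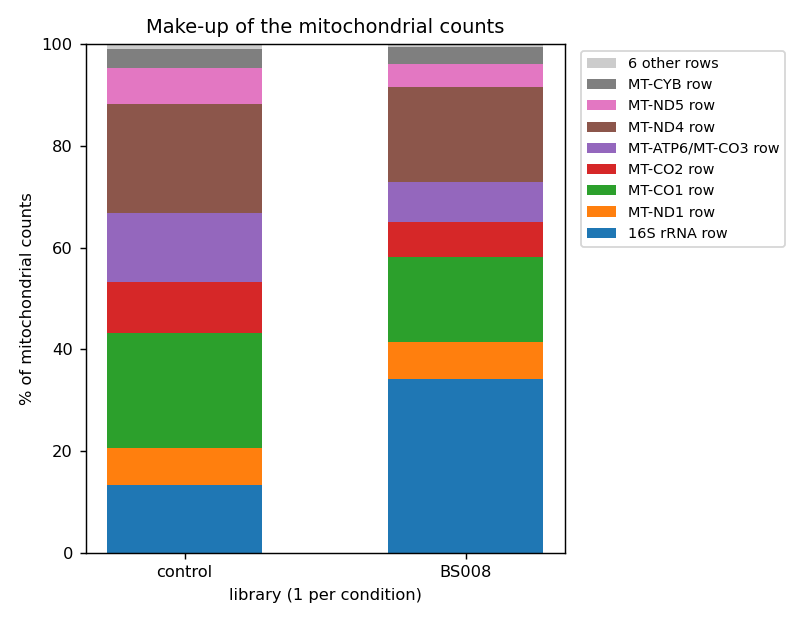
Percent of all mitochondrial counts held by each of the 8 rRNA and protein-gene rows (colours) and by the 6 other rows together (light grey), with 1 bar for each library. The 16S share, at the foot of the bars, goes from 13.3% with DMSO to 34.2% with BS008.

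The 6 other mitochondrial rows had few reads, 66653 with DMSO (0.120% of all counts) and 45304 with BS008 (0.0846%). None of the 6 was higher with BS008, where 61410 of the 131330 rows tested were. The row on MT-TV, the valine tRNA that lies directly before 16S on the same RNA, had 656 and 600 reads (log2 ratio -0.08, exact counting interval -0.24 to 0.08), so that a change of this row was not detectable at this depth. Per length, the 16S row was 29.4 times the MT-TV row with DMSO and 88.4 times with BS008. The MT-TV row covers 31 of the 69 bases of its gene, and how much of this tRNA the kit takes up was not tested. These ratios therefore hold for reads and not for amounts of RNA. The row on MT-TS2, a serine tRNA, had 1269 and 879 reads (log2 ratio -0.47). The remaining 4 rows lie in or beside the noncoding control region, where replication and transcription start. On the minus strand, the log2 ratio was -0.79 for the row from 237 to 310, with 15583 and 8673 reads, and -0.56 for that from 311 to 366, with 7208 and 4704. On the plus strand, it was -0.67 for the row from 15998 to 16182, with 21452 and 13053 reads, and -0.19 for that from 16183 to 16569, with 20485 and 17395. By log2 ratio the row nearest to 16S among these 6 was that on MT-TV, and it was still 1.59 below it. Whether the 12S rRNA moved with the 16S rRNA is not known, since no row covers it.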

How the data were processed

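Huh-7 RNA was sequenced in 1 library for each condition, and samples were grouped by their treatment labels. The authors deposited raw counts of reads per exon row and, beside them, RPKM values. Recomputing RPKM from the counts, row lengths and library totals returned the deposited values of all 14 mitochondrial rows to within 4.72e-06. The submitters' processing notes name hg19, and the mitochondrial rows are named for the revised Cambridge reference (rCRS). The aligner and counter were not given in the sources used here. The 8 rows chosen start at 1707 (16S), 3108 (MT-ND1), 5854 (MT-CO1), 7586 (MT-CO2), 8663 (MT-ATP6/MT-CO3), 10578 (MT-ND4), 12337 (MT-ND5) and 14761 (MT-CYB). Mitochondrial genes and sequences came from GENCODE release 29. Nuclear rows carry no gene names and no hg19 annotation was at hand, so the planned lists of nuclear genes and cell type markers (Huh-7 identity) were not analysed here.

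Log2 ratios were computed on CPM over the whole table with a pseudocount of 0.5, on rows with at least 10 counts in either library. A row was called by a fold of 2, without a test. Intervals of ratios are exact (Clopper-Pearson) and those of shares are Wilson intervals. TMM and RLE factors came from edgeR 4.0.16 in R 4.3.3, and other values from numpy 2.4.6, pandas 2.3.3 and scipy 1.17.1 under Python 3.11.15. The ratio script was tested on simulated data. Rows named were the 8 chosen and every other mitochondrial row with at least 100 counts. Members and lists were chosen with earlier results of these data known. Alternatives covered pseudocounts, scalings, fold limits and count minimums. A count of 3 was taken as the floor, which is 5.4e-06% and 5.6e-06% of the control and BS008 library.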

Additional observations from a re-analysis of the deposited data

How the results depend on the processing

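The 16S row stayed at least 2-fold higher under every alternative, with a log2 ratio of 1.51 as reported and with other pseudocounts, 1.57 with TMM factors, 1.57 with RLE factors, 1.53 with the library total without mitochondrial rows and 1.55 without the 16S row in the total. The median of the 7 protein-gene rows, -0.28 as reported, was -0.22, -0.22, -0.26 and -0.23 under these scalings. The number of the 8 rows past the limit was 1 at 2-fold and 2 at 1.5-fold. Of all rows tested, 3.73% were higher and 3.79% lower by at least 2-fold. At 1.5-fold, 11.5% were higher and 13.9% lower. The sign changed for MT-ND4 (0.014 with TMM factors, 0.015 with RLE factors) and, for MT-ND1, in the calculation without its 16S bases (-0.39), which was added after the data had been seen and moves the median of the 7 rows to the same value, -0.39. The mitochondrial share without the 16S row was 10.4% with DMSO and 9.02% with BS008, and the 16S share of the 8 rows alone was 13.4% and 34.4%. Over the whole table, 4902 rows were at least 2-fold higher and 4977 lower. These counts were 11471 and 11189 with a pseudocount of 0.1, 3020 and 3017 with 1, 15150 and 18306 at 1.5-fold, and 48 and 51 with at least 10000 counts. No mitochondrial row overlaps another, so leaving out such rows changed nothing. No paired analysis was possible because each condition has 1 library, and for the same reason no replicate could be left out. Counting error was largest for the tRNA rows, and no depth would show how cultures differ.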
